A study of Arabidopsis thaliana with 9 samples.

Results

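To ask how miRNA target slicing changes once a heat stress ends, the nanoPARE libraries of the Recovery group were set against those of the HS group. Both groups were 7-day-old seedlings of Arabidopsis thaliana Col-0, the standard wild-type accession. Recovery seedlings had 1 h at 37°C followed by 2 h at 22°C, HS seedlings were taken at the end of 1 h at 37°C, and Control seedlings were not heated. Every library labelled Recovery or HS was used, which makes 6 of the 9 libraries of the series, 3 per group. The 3 Control libraries are given as the unheated background. The series calls the replicates biological, and all seedlings were wild type. RNA came from whole seedlings, so fewer cells of a type and less RNA per cell cannot be told apart.

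nanoPARE (nano-parallel analysis of RNA ends) captures the 5′ ends of RNA molecules. A plant miRNA bound to ARGONAUTE1 (AGO1) cuts its target opposite miRNA bases 10 and 11, and the 3′ fragment then carries a 5′ end at a predictable base, the slice site. Each deposited line is a candidate, namely a miRNA match in a transcript together with the reads at its slice site, scaled to the size of the library (RPM). Its Allen score is a mismatch penalty, from 0 for a perfect match to 6 for the weakest match listed. Other 5′ ends, such as those of mRNA decay, can fall on the same base, and the RPM of a site moves with the amount of the transcript as well as with the share of it that is cut. Heat shock proteins (HSPs) are chaperones whose transcripts accumulate within minutes of heat and are cleared after it, and seedlings that leave heat resume the growth programmes in which conserved miRNAs repress transcription factors.

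The sequences below show the 3 kinds of site on which the comparison turns. Capitals mark miRNA bases 2 to 8 and, in the target, the bases opposite them. Mature miRNAs and transcripts were read from RefSeq (TAIR10.1), and a site was placed where exactly 1 stretch of the transcript had the deposited Allen score. This placed 44 of 110 sites looked up. The deposited position was 1 base before the base opposite miRNA base 10 at 19 of them, and at the other 25 it lay 19 to 706 bases away, so the coordinates are those of the sequence match.

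The first kind is weak matches with most of their RPM in HS, in heat shock transcripts and in AT4G14270. The miR829-5p site of HSP17.6A-CI lies in the coding sequence of exon 1 (chr1:22031835-22031855, plus strand, Allen score 5), the miR831-3p site of AT4G14270 in the coding sequence of exon 1 (chr4:8218715-8218736, plus strand, Allen score 6), and the miR832-5p site of HSP70B in the coding sequence of exon 1 (chr1:5503708-5503728, minus strand, Allen score 6). The miR3440b-5p site of HSP17.8 could not be placed, so the miRNA alone is shown.
miR3440b-5p: uUUUCUUGgcccauccacuuc
miR829-5p: aCUUUGAAgcuuugauuugaa
HSP17.6A-CI site: atcaagttaaagcTTCAATGg
miR831-3p: uGAUCUCUucguacucuucuug
AT4G14270 site: gaagaagagttcgaGGAGATGa
miR832-5p: uGCUGGGAucgggaaucgaaa
HSP70B site: ttttgattttcgaTCTCGGTg

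The second kind had more RPM in Recovery than in HS, and includes miRNAs that are a run of a 3-base repeat. The longest stretch of period 3 covered 19 of the 21 bases of miR5658 and 16 of the 20 bases of miR5021, against 6 of 20 in miR156j. It covered 11 of 21 bases in miR414, whose groups overlapped, and 10 of 21 in miR847. The sites of miR847 went the other way, with 2.33, 0.927 and 0.217 RPM in Recovery libraries, against 6.88, 1.25 and 8.15 RPM in HS libraries. The miR5024-5p site of AT3G02750 lies in the 3′ UTR (exon 4, chr3:593359-593380, minus strand, Allen score 4) and the miR5658 site of CA2 in the 3′ UTR (exon 10, chr5:4762429-4762449, plus strand, Allen score 3.5).
miR5024-5p: aUGACAAGgccaagauauaaca
AT3G02750 site: tgttgttttttggtCTTGTCAg
miR5658: aUGAUGAUgaugaugaugaaa
CA2 site: catcatcgtcgtcATCATCAt
miR5021: uGAGAAGAagaagaagaaaa

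The last kind is the close matches of conserved miRNAs in their known targets. The miR156j site of SPL2 (exon 5, chr5:17360758-17360777, minus strand, Allen score 0), the miR160a-5p site of ARF17 (exon 2, chr1:29274189-29274209, plus strand, Allen score 0.5) and the miR164a site of NAC1 (exon 3, chr1:20947142-20947162, minus strand, Allen score 2) lie in coding sequence. The miR403-3p site of AGO2 lies in the 3′ UTR (exon 3, chr1:11185223-11185243, plus strand, Allen score 1).
miR156j: uGACAGAAgagagagagcac
SPL2 site: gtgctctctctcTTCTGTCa
miR160a-5p: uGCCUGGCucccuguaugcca
ARF17 site: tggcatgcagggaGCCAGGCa
miR164a: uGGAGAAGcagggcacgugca
NAC1 site: agcacgtaccctgCTTCTCCa
miR403-3p: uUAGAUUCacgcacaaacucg
AGO2 site: ggagtttgtgcgtGAATCTAa

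The 6 libraries held 1900 lines at 1218 sites in 1116 target loci, for 247 miRNAs of 167 families. A site was listed in 1 library only in 846 cases (69.5%) and in all 6 in 23 cases. Totals implied by the value of 1 read ran from 2938238 to 4609739 reads, and the median site rested on 1 read in each library, so that absence from a list means few reads as well as none. Root marker genes had no listed site. HS replicate 2 stood apart from the other HS libraries, with 4.27 RPM over the mitochondrial genome against 49.7 and 29.7 RPM in HS replicates 1 and 3, and with 31.9 RPM over small HSPs against 56.8 and 68.1 RPM. Counts of calls are given with and without it, as are the values of several sites and families whose calls turn on it. HS replicate 2 was singled out from these same values. A call made only without it therefore shows dependence on that library and is not added support.

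Few sites were called, and 2 of the 3 lay in heat shock transcripts. On log2(RPM + 1) with limma over all 9 libraries, 3 of 322 tested sites were lower in Recovery at an adjusted p under 0.05 (0.932% of tested sites) and 0 were higher (0%). At an unadjusted p under 0.05 the counts were 25 lower and 13 higher. The median over all tested sites was −0.02. With libraries rescaled to equal listed RPM the same 3 sites were lower and 1 was higher.

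The miR3440b-5p site of HSP17.8 (AT1G07400), a cytosolic small HSP that holds unfolding proteins, had 0.873, 2.78 and 0.651 RPM in Recovery libraries, against 32.7, 12.5 and 32.9 RPM in HS libraries. Every Recovery library lay below every HS library, and in Control the site was listed once, at 0.349 RPM. It fell by 3.46 on the log2 scale (SE 0.54, limma adjusted p = 0.000451), with means of 1.44 ± 1.17 RPM in Recovery and 26.0 ± 11.7 RPM in HS (SD, n = 3). The miR829-5p site of HSP17.6A-CI (AT1G59860), of the same class of chaperone, was listed in Recovery replicate 3 alone, at 0.217 RPM, against 14.6, 2.26 and 12.4 RPM in HS libraries. It was listed in no Control library and fell by 3.04 (SE 0.48, limma adjusted p = 0.000451). The product of AT4G14270 is annotated as a partner of poly(A)-binding protein, which coats mRNA tails. Its transcript was listed at position 273 in no Recovery library, against 2.38, 1.25 and 3.91 RPM in HS libraries. Its log2 difference was −1.74 (SE 0.36, limma adjusted p = 0.00757), a value that depends on the pseudocount of 1 because Recovery is at 0.

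None of the 3 sites carried an authors' adjusted p under 0.05 in any library, and their median ratio to the local background was 0.390 at HSP17.8, 0.290 at HSP17.6A-CI and 0.333 at AT4G14270, below 1 in each case. The calls depend on which libraries enter the fit. The fit of 9 libraries shares 1 estimate of the spread over the groups, Control included. These sites were at or near 0 in Control, while the SD in HS was 11.7 RPM at HSP17.8 and 6.59 RPM at HSP17.6A-CI. What this contributes to the small p-values was not tested. With only the 6 Recovery and HS libraries in the fit no site passed (adjusted p = 0.142 for all 3 in limma), nor did any without Recovery replicate 3, while 16 sites passed without HS replicate 2, all of them lower. Without Recovery replicate 1, 8 sites passed (3 lower and 5 higher). The 5 higher ones were listed in Recovery libraries alone and so passed the filter through that group.

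**Figure D1:**
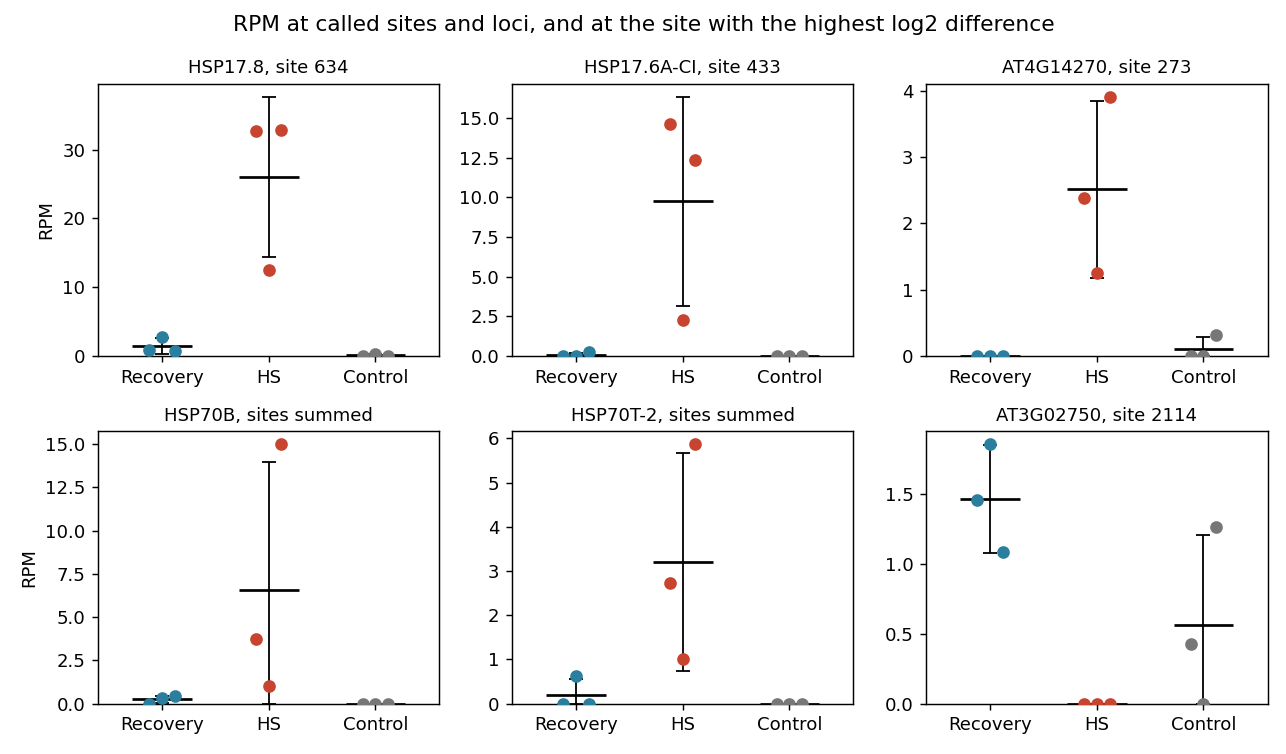
RPM (y axis, linear, a separate scale per panel) in the 3 Recovery, 3 HS and 3 Control libraries (x axis) at the 3 called sites, at 2 further called loci with their sites summed, and at AT3G02750, which had the highest log2 difference and was not called. Points are libraries, lines are means, and bars are the SD, stopped at 0. All Recovery points lie below all HS points in the 5 called panels, and HSP17.8 runs from 0.651 to 2.78 RPM in Recovery against 12.5 to 32.9 RPM in HS.

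Small HSPs had 7 tested sites in 6 of the 19 loci on the list. Of these 2 fell, and 6 of 7 had a negative log2 difference (5 of 7 with rescaled libraries) with a median of −1.22, against 180 of 322 negative and a median of −0.02 over all tested sites. Apart from HSP17.8, the small HSP sites were listed in no Control library and passed the filter through HS and Recovery libraries. The list was not tested against all sites. Summed over the list, Recovery libraries held 7.57, 10.2 and 4.99 RPM, against 56.8, 31.9 and 68.1 RPM in HS libraries, and Control libraries held at most 0.349 RPM. Each Recovery library was thus below each HS library and above each Control library, and the two-sided exact permutation p of 0.1 is the smallest that 3 against 3 allows (0.32 after adjustment over 16 library measures).

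HSP17.6B, another cytosolic small HSP, kept the highest level of the list in Recovery. Its miR390a-3p site had 4.37, 4.94 and 1.74 RPM in Recovery libraries, against 4.76, 12.3 and 13.4 RPM in HS libraries, and the groups overlapped at Recovery replicate 2 and HS replicate 1 (log2 difference −1.22, SE 0.51, limma adjusted p = 0.313). HSP23.6-MITO, the mitochondrial member, had 0.291, 0 and 0.217 RPM in Recovery libraries, against 0.681, 2.76 and 2.28 RPM in HS libraries, with no overlap and a log2 difference of −1.24 (limma adjusted p = 0.0948, and 0.0284 without HS replicate 1). HSP18.1 was at 1 or 2 reads where it was listed.

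Of the HSP70, HSP90 and HSP100 chaperones, which refold or disaggregate proteins with ATP, 7 sites were tested and all 7 had a negative log2 difference (6 with rescaled libraries), with a median of −1.06. None passed at the level of sites (limma, 5 lower and 0 higher at an unadjusted p under 0.05). At 4 of them (57.1%) the groups were fully apart with Recovery below, as at 24 of the 322 sites tested in all (7.45%). Sites listed in no Control library, such as HSP70T-2 at positions 1614 and 1301, passed the filter through HS and Recovery libraries. Position 1614 was listed in HS alone, so the difference between these shares is not read as a result. The list summed to 0, 1.85 and 1.3 RPM in Recovery libraries, against 9.87, 4.27 and 30.3 RPM in HS libraries and 0.429, 1.05 and 0 RPM in Control libraries. HSP90.1, the heat-inducible cytosolic HSP90, had 0, 0.618 and 0.217 RPM at its miR414 site in Recovery libraries, against 1.70, 1.00 and 2.28 RPM in HS libraries (log2 difference −1.06, limma adjusted p = 0.123, and 0.0484 without HS replicate 2). MTHSC70-2, a mitochondrial HSP70, had 0, 0 and 0.434 RPM in Recovery libraries, against 0.681, 1.00 and 4.24 RPM in HS libraries (log2 difference −1.21, limma adjusted p = 0.123). Without HS replicate 2, HSP70B at position 590 (limma adjusted p = 0.0484) and HSP70T-2 at positions 1614 and 1301 (limma adjusted p = 0.0281 and 0.0446) passed too. MTHSC70-2 did not (limma adjusted p = 0.128).

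HSP70B and HSP70T-2 passed once the sites of a locus were summed. HSP70B, a heat-inducible HSP70, had 0, 0.309 and 0.434 RPM in Recovery libraries, against 3.74, 1.00 and 15 RPM in HS libraries, and no Control library listed it. It fell by 2.11 (SE 0.48, limma adjusted p = 0.00897). HSP70T-2, a truncated HSP70, had 0, 0.618 and 0 RPM in Recovery libraries, against 2.72, 1.00 and 5.87 RPM in HS libraries, and fell by 1.66 (SE 0.41, limma adjusted p = 0.0174). In all, 5 of 333 tested loci were lower (1.5%) and 0 were higher (0%), with 22 lower and 10 higher at an unadjusted p under 0.05 in limma. They were HSP17.6A-CI, HSP17.8, HSP70B, HSP70T-2 and AT4G14270. With each of the 9 libraries left out in turn, HSP17.6A-CI and HSP17.8 passed in all 9 fits, HSP70B and HSP70T-2 in 3, and AT4G14270 in 2. None of the 5 passed with only the 6 libraries in the fit. The count was 2 without any 1 of Recovery replicates 1 and 3, HS replicate 3 and Control replicates 2 and 3, and 9 without HS replicate 2.

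Among co-chaperones and other heat response genes, 3 sites were tested and all 3 differences were negative (2 with rescaled libraries, where J3 was at 0.09), with no pass (limma, 1 lower and 0 higher at an unadjusted p under 0.05). FES1A, a nucleotide exchange factor of cytosolic HSP70, had 0.291, 2.78 and 1.3 RPM at its miR5013 site in Recovery libraries, against 3.06, 9.28 and 9.45 RPM in HS libraries. The groups did not overlap, and the log2 difference was −1.76 (SE 0.49, limma adjusted p = 0.0948). It passed without Recovery replicate 2 or without HS replicate 1 (both limma adjusted p = 0.031). J3, a DnaJ-type co-chaperone, differed less, with 1.16, 1.55 and 0.434 RPM in Recovery libraries, against 1.02, 2.01 and 1.3 RPM in HS libraries (log2 difference −0.28, limma adjusted p = 0.836). Of 21 heat shock factors, the transcription factors that drive these genes, only HSFA7A and HSFB1 had a site. HSFA7A was at 0.340 and 0.251 RPM in HS replicates 1 and 2, HSFB1 was at 0.502 RPM in HS replicate 2, and neither was listed in Recovery or Control.

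**Figure D2:**
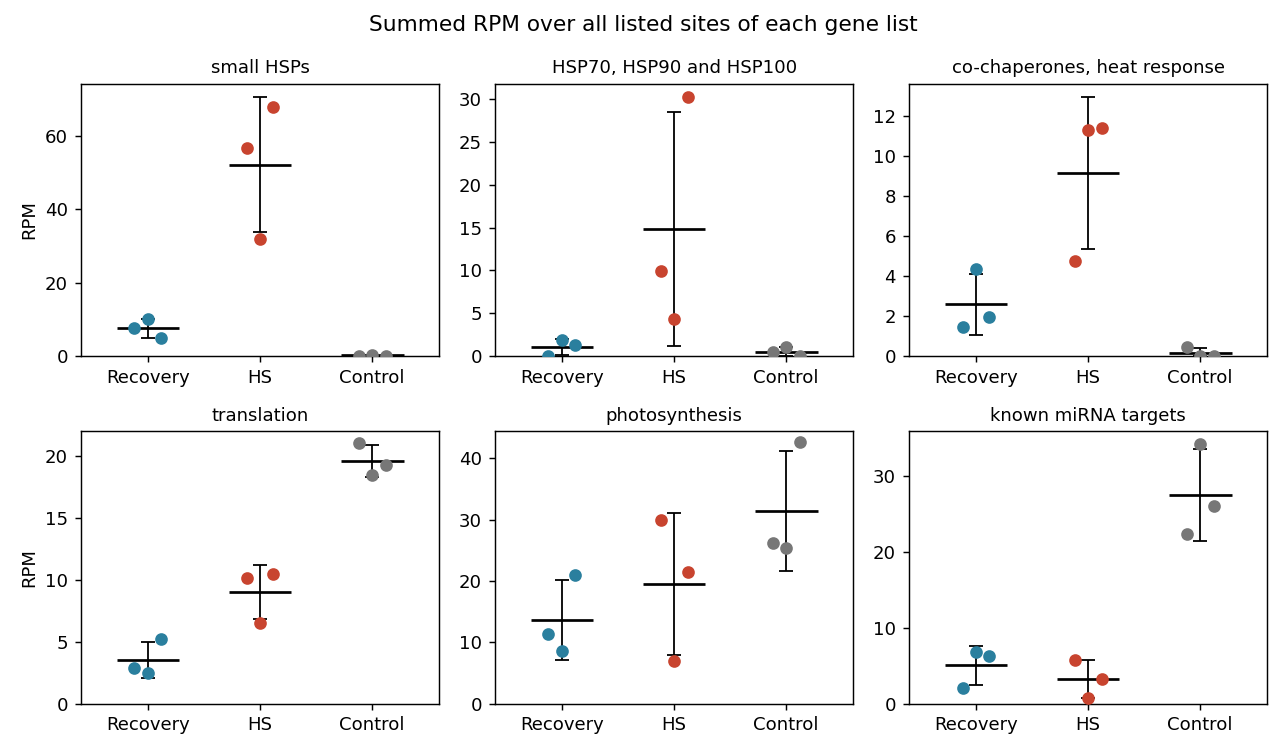
RPM summed over all listed sites of 6 gene lists (y axis, linear from 0, a separate scale per panel) in Recovery, HS and Control libraries (x axis). Points are libraries, lines are means, and bars are the SD, stopped at 0. The 3 heat shock lists and the translation list have every Recovery point below every HS point, while photosynthesis genes and known miRNA targets overlap.

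Transcripts outside the heat shock lists made up most of the sites at which the groups were fully apart, as they did of all tested sites. At 24 sites every Recovery library was below every HS library (7.45% of the 322), and at 18 sites every Recovery library was above (5.59%). Of the 24 lower sites 8 belonged to heat shock lists, as did 1 of the 18 higher sites and 17 of all 322. In no Control library were 9 of the 24 lower and 8 of the 18 higher sites listed. Being listed in all 3 libraries of 1 group, these sites passed the filter without Control, so their share was not set against that of all tested sites. LHCB1.3, a light-harvesting protein of photosystem II, had 0.582, 0.618 and 2.39 RPM at its miR842 site in Recovery libraries, against 8.17, 3.51 and 4.56 RPM in HS libraries and 9.43, 12.2 and 18.0 RPM in Control libraries (log2 difference −1.58, limma adjusted p = 0.186). TCTP, a conserved growth-related protein, had 1.16, 0.927 and 1.74 RPM in Recovery libraries, against 4.08, 3.01 and 6.19 RPM in HS libraries and 7.72 to 9.47 RPM in Control libraries (log2 difference −1.23, limma adjusted p = 0.333). Without HS replicate 2, the lowest HS library at both, LHCB1.3 and TCTP passed (log2 differences −1.80 and −1.43, limma adjusted p = 0.0484 for each). At both transcripts the level was thus lower in Recovery than in HS, and lower in HS than in Control, in every library.

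TUB5, a β-tubulin, was listed in no Recovery library, against 1.70, 0.502 and 1.63 RPM in HS libraries (log2 difference −1.14, limma adjusted p = 0.139). Other sites listed in all 3 HS libraries and in no Recovery library were in HSP70T-2, AT4G14270, AT3G09200 (a ribosomal protein of the L10 family), VMA10 (a subunit of the vacuolar ATPase), ROC3 (a cyclophilin), HMGB2 (a high mobility group protein of chromatin), MYBR1 (a MYB transcription factor), AT5G52840 and CRL1. They made 10 sites in all, of 56 sites listed in all 3 HS libraries, and 77 of the 322 tested sites were listed in no Recovery library. The reads of AT3G09200 were partly shared with another locus.

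The highest log2 difference toward Recovery was at AT3G02750, a protein phosphatase of the PP2C family. Its miR5024-5p site had 1.46, 1.85 and 1.08 RPM in Recovery libraries and was listed in no HS library, against 0.429, 0 and 1.26 RPM in Control libraries. The log2 difference of 1.29 (SE 0.36) did not pass (limma adjusted p = 0.0948), but did with rescaled libraries (1.72, limma adjusted p = 0.0120). CA2, a carbonic anhydrase, had 2.91, 1.85 and 5.64 RPM at its miR5658 site in Recovery libraries, against 1.70, 0.753 and 0.652 RPM in HS libraries, a log2 difference of 1.08 (limma adjusted p = 0.362). PDE334, the b′ subunit of the chloroplast ATP synthase, had 0.291, 0.927 and 1.08 RPM at a miR5021 site in Recovery libraries and was listed in no HS or Control library (log2 difference 0.79, limma adjusted p = 0.157).

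Sites listed in all 3 Recovery libraries and in no HS library numbered 12, of 55 sites listed in all 3 Recovery libraries. Of the 322 tested sites, 63 were listed in no HS library. Besides AT3G02750 and PDE334 they were in AT2G44060 (a late embryogenesis abundant protein), AT1G80440 (a kelch repeat protein), AT3G15450, AT2G17880 and AT5G05750 (both with a DnaJ domain), AT3G59040, CYP71B5 (a cytochrome P450), AT3G15480, and AT1G53870 with AT1G53890, whose identical fractional values show shared reads, so that the pair counts as uncertain. Apart from AT3G02750 and PDE334 they stayed below 0.7 RPM, that is, at 3 reads or fewer. Without Recovery replicate 1, AT3G15480, CYP71B5, AT2G17880, AT3G59040 and AT5G05750 passed, with log2 differences of 0.34 to 0.45 (limma adjusted p = 0.0250). None of these was listed in an HS or Control library, so they passed the filter through Recovery alone. With that replicate left out they rested on 0.309 and 0.217 RPM (0.309 and 0.434 RPM at CYP71B5). These calls are therefore not read as a rise. Of the 18 higher sites 8 had an Allen score of 4 or less (44.4%), against 4 of the 24 lower sites (16.7%) and 83 of all 322 (25.8%). None of the 42 was a known miRNA target.

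**Figure D3:**
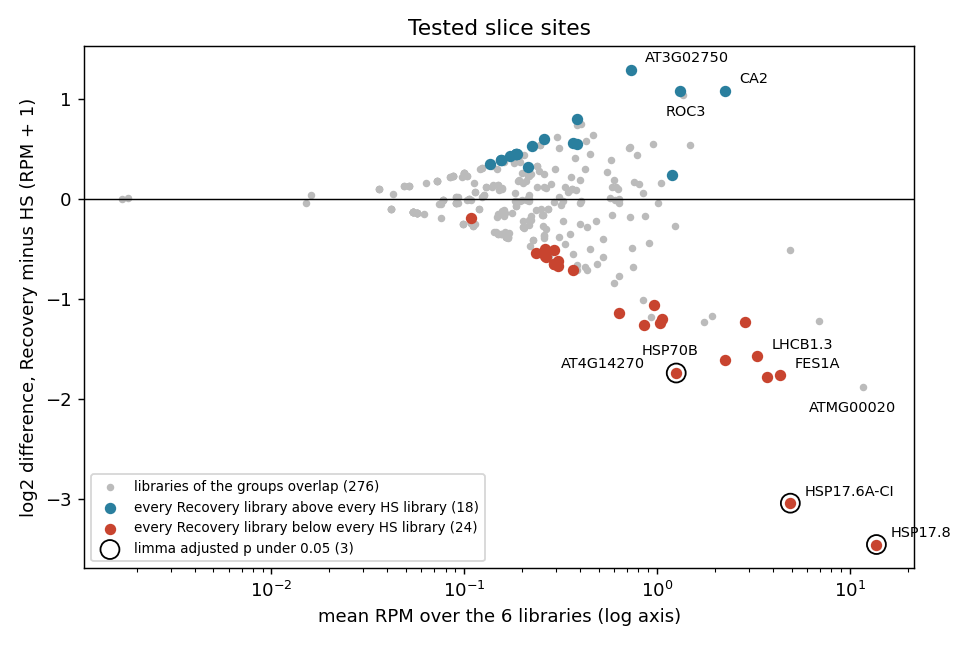
Log2 difference of each tested site, Recovery minus HS on log2(RPM + 1) (y axis), against its mean RPM over the 6 libraries (x axis, log scale). Sites at which the 6 libraries list nothing are not drawn. Colours mark the 18 sites with every Recovery library above and the 24 with every Recovery library below every HS library, and rings mark the 3 called sites. Low sites lie close to 0 whichever way they moved, and the sites with the largest differences, HSP17.8 at −3.46 and HSP17.6A-CI at −3.04, are lower in Recovery.

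Within single transcripts, sites did not always move together. Of 18 loci with 2 or more tested sites, 5 had sites on both sides of 0 by more than 0.2 on the log2 scale. HSP17.4, a cytosolic small HSP, had 0.291, 1.24 and 0.434 RPM at its miR173-3p site (position 460) in Recovery libraries, against 2.72, 0.753 and 6.19 RPM in HS libraries (log2 difference −1.17, limma adjusted p = 0.198, and −1.69 with 0.0338 without HS replicate 2). At its miR5015 site (position 407) it had 1.16, 1.24 and 1.74 RPM in Recovery libraries, against 1.02, 1.00 and 0.978 RPM in HS libraries (log2 difference 0.24, limma adjusted p = 0.836). ROC3 was listed at position 405 in no Recovery library, against 0.681, 0.753 and 0.326 RPM in HS libraries (log2 difference −0.66, limma adjusted p = 0.514). At position 538, a miR414 match in the 3′ UTR, it had 1.75, 1.55 and 3.04 RPM in Recovery libraries, against 0.340, 1.25 and 0 RPM in HS libraries (log2 difference 1.07, limma adjusted p = 0.204).

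CA1, the main chloroplast carbonic anhydrase, showed the same split. Its miR5024-3p site (position 748) had 0, 0.309 and 0.868 RPM in Recovery libraries, against 5.45, 0 and 3.91 RPM in HS libraries (log2 difference −1.23, limma adjusted p = 0.392, and −2.06 with 0.0179 without HS replicate 2), while both its miR5658 sites (positions 1175 and 1200) had positive differences of 0.45 and 0.51. With all libraries no site of these loci passed in either direction, and a difference between sites of 1 transcript was not tested.

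Summed over the sites of each miRNA family, 8 of 139 tested families were lower in Recovery (5.76%) and 0 were higher (0%), with 16 lower and 3 higher at an unadjusted p under 0.05 in limma. The median over families was −0.14. Rescaling the libraries to equal listed RPM brought it to 0.01 and the calls to 4 lower and 3 higher, so a direction that is small against this shift depends on the scaling. Without HS replicate 2, 16 families passed (14 lower and 2 higher), and without HS replicate 3 or Recovery replicate 3, 4 and 5. The 3 strongest calls passed in all 9 fits with a library left out and in the 7 other settings that kept every line. miR3440 had 1.46, 3.71 and 1.3 RPM in Recovery libraries, against 36.8, 14.0 and 34.9 RPM in HS libraries, and fell by 3.19 (SE 0.50, limma adjusted p = 5.59e-08). miR829 had 0.582, 1.85 and 2.17 RPM in Recovery libraries, against 16.3, 6.52 and 14.0 RPM in HS libraries, and fell by 2.37 (limma adjusted p = 0.000399). miR832 was listed in no Recovery library, against 4.08, 1.51 and 3.91 RPM in HS libraries (log2 difference −1.99, limma adjusted p = 0.000481).

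These family sums were largely those of single heat shock sites. HSP17.8 held 89.5% of the RPM of miR3440 in the 6 libraries, HSP17.6A-CI 71.1% of that of miR829 and HSP70B 66.2% of that of miR832. Without the leading site the other 11 sites of miR829 summed to 1.46 ± 0.764 RPM in Recovery and 2.53 ± 1.5 RPM in HS (SD, n = 3), and the other 5 sites of miR3440 to 0.720 ± 0.183 RPM in Recovery and 2.51 ± 1.38 RPM in HS. The rest of miR3440 still did not overlap, with 0.582, 0.927 and 0.651 RPM in Recovery libraries, against 4.08, 1.51 and 1.96 RPM in HS libraries. For miR832, HS replicate 2 had 0 RPM at the HSP70B site. The other 4 sites of miR832 summed to 1.70, 1.51 and 0 RPM in HS libraries. miR831 was less concentrated, with 37.4% at AT4G14270 and all 7 of its tested sites negative. It had 0, 1.24 and 0.651 RPM in Recovery libraries, against 7.39, 2.76 and 8.15 RPM in HS libraries and 4.74 to 7.72 RPM in Control libraries, and fell by 2.1 (limma adjusted p = 0.00164). Its sites include RPL41, ribosomal protein genes whose reads are shared among copies.

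Among the other called families, miR5013 (log2 difference −1.57, limma adjusted p = 0.0410) took 87.4% of its RPM from FES1A, and miR5628 (log2 difference −1.14, limma adjusted p = 0.0477) took 94.3% from HSP70T-2. They passed in 3 and 2 of the 9 fits with a library left out. miR858 (log2 difference −1.82, limma adjusted p = 0.00164) and miR2937 (log2 difference −1.78, limma adjusted p = 0.0144) rested on 2 positions of the mitochondrial locus ATMG00020, which held 85.4% and 100% of their RPM. ATMG00020 is the gene of the mitochondrial large ribosomal RNA. The RPM there is of 5′ ends of a ribosomal RNA and not of an mRNA target, and whether a miRNA made them was not tested. For miR858 the groups overlapped, with 3.20, 3.40 and 3.91 RPM in Recovery libraries, against 43.2, 2.41 and 25.7 RPM in HS libraries and 22.7, 43.9 and 40.7 RPM in Control libraries. The low value is that of HS replicate 2, the library that was low over the whole mitochondrial genome. Without it the log2 difference was −2.94 for miR858 (limma adjusted p = 2.37e-13) and −2.44 for miR2937 (limma adjusted p = 1.4e-05). Without HS replicate 1 the adjusted p of both was 0.318, and without HS replicate 3 it was 0.113.

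With all 9 libraries no family passed in the other direction. Without HS replicate 2, miR5021 (1.37, limma adjusted p = 0.0188) and miR867 (1.52, limma adjusted p = 0.0253) did. With rescaled libraries miR5021 (1.87, limma adjusted p = 0.00162), miR5658 (1.67, limma adjusted p = 0.00703) and miR867 (1.66, limma adjusted p = 0.00703) were higher. miR5021 had 8.19, 15.2 and 14.3 RPM in Recovery libraries, against 5.11, 6.04 and 3.26 RPM in HS libraries, with no overlap (log2 difference 1.21, SE 0.49, limma adjusted p = 0.153). Unlike the families that fell, its signal was spread, with at most 11.0% at any of its 93 sites. The libraries listed 22, 34 and 40 of these sites in Recovery, against 9, 16 and 6 in HS, so that the number of listed sites was higher in every Recovery library than in every HS library. In Control libraries miR5021 had 11.2, 4.53 and 5.98 RPM, and Control replicate 1 lay within the Recovery range. Of its 11 tested sites 9 had a positive log2 difference and 2 a negative one. miR5658, the other repeat-like miRNA shown above, had 7.91, 4.65 and 9.76 RPM in Recovery libraries, against 3.74, 2.26 and 3.26 RPM in HS libraries (log2 difference 1.01, limma adjusted p = 0.356), and Recovery libraries listed 11, 7 and 14 of its sites, against 5, 7 and 5 in HS libraries.

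miR867 had 3.20, 3.40 and 1.74 RPM in Recovery libraries, against 0, 1.51 and 0.652 RPM in HS libraries (log2 difference 1.2, limma adjusted p = 0.145), and 78.2% of this was at AT2G07698, annotated as an α subunit of an F1 ATPase complex. miR414, with 196 sites the family with the most RPM, had 27.3, 40.0 and 40.8 RPM in Recovery libraries, against 33.9, 38.5 and 45.1 RPM in HS libraries (log2 difference −0.13, limma adjusted p = 0.838, and 0.59 with rescaled libraries). miR390 had 5.24, 5.87 and 2.82 RPM in Recovery libraries, against 5.79, 13.8 and 16.6 RPM in HS libraries (log2 difference −1.14, limma adjusted p = 0.232), and 82.7% of it was the HSP17.6B site.

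**Figure D4:**
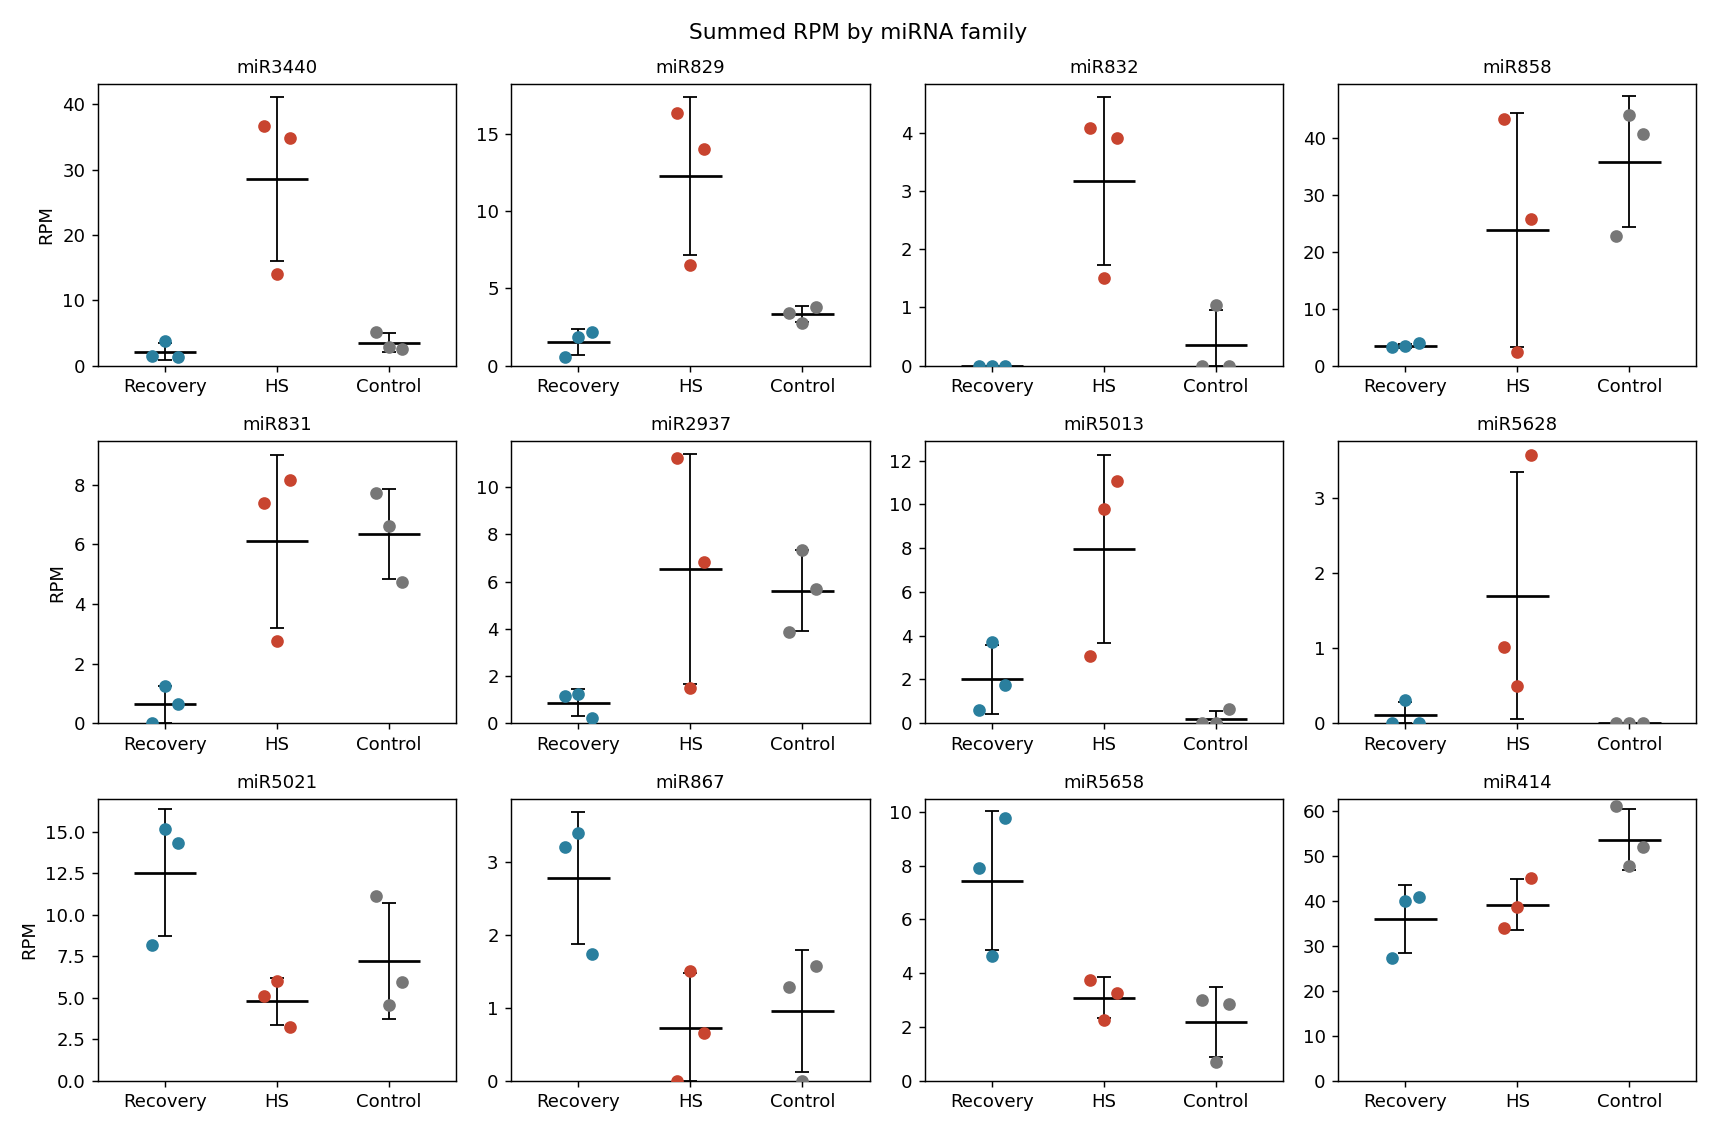
RPM summed over the sites of a miRNA family (y axis, linear from 0, a separate scale per panel) in Recovery, HS and Control libraries (x axis). The panels are the 8 called families, then miR5021, miR867 and miR5658 with the highest differences among the families discussed, and miR414. Points are libraries, lines are means, and bars are the SD, stopped at 0. The 8 called families have lower means in Recovery than in HS, miR858 and miR5013 with overlap, while miR5021 lies between 8.19 and 15.2 RPM in Recovery against 3.26 to 6.04 RPM in HS.

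Known targets of conserved miRNAs, most of them transcription factors, were not seen to change between the end of the heat and 2 h later. Their sites summed to 2.04, 6.80 and 6.29 RPM in Recovery libraries, against 5.79, 0.753 and 3.26 RPM in HS libraries and 22.3, 34.2 and 26.0 RPM in Control libraries. Recovery and HS overlapped (5.04 ± 2.61 against 3.27 ± 2.52 RPM, SD, n = 3, two-sided exact permutation p = 0.5), and every library of both groups was below every Control library. These sums rest on 7, 22 and 29 reads in Recovery libraries and 17, 3 and 10 reads in HS libraries, so a difference between the groups can have gone undetected at this depth. Without HS replicate 2 the difference in means was 0.520 RPM, against 1.78 RPM with it. As a share of all RPM listed, known targets held 3.02% ± 1.21 in Recovery and 1.09% ± 0.731 in HS (SD, n = 3, two-sided exact permutation p = 0.2).

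Of 145 known target loci, 28 had a site in the 6 libraries, at 29 sites. Their mean was higher in Recovery at 17 and lower at 12, 15 were listed in Recovery alone, 8 in HS alone and 6 in both. None of the 15 tested sites passed in limma, with 0 at an unadjusted p under 0.05 in either direction, 10 had a positive and 5 a negative log2 difference (12 and 3 with rescaled libraries), the median was 0.17, and at no site were the groups fully apart.

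Auxin response factors, which set auxin-dependent growth, were at a few reads in both groups. ARF17 had 0.291, 0 and 1.3 RPM at its miR160 site in Recovery libraries, against 1.02, 0.251 and 0.652 RPM in HS libraries and 1.72 to 6.63 RPM in Control libraries (log2 difference −0.16, limma adjusted p = 0.938, and 0.10 with rescaled libraries). ARF6, a target of miR167, had 0.618 RPM in Recovery replicate 2 and 0.326 RPM in HS replicate 3. ARF10 and ARF16 were listed in Recovery replicate 3 alone, at 0.217 and 0.434 RPM, and ARF8 in HS replicate 3 alone, at 0.326 RPM. GRF3, a growth-regulating factor and target of miR396, was the known target listed in all 6 libraries, with 0.291, 0.618 and 0.217 RPM in Recovery libraries, against 0.681, 0.251 and 0.326 RPM in HS libraries and up to 4.42 RPM in Control libraries (log2 difference −0.04, limma adjusted p = 0.999, and 0.18 with rescaled libraries).

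Some known targets were listed in 2 Recovery libraries and in no HS library. SPL2, a target of miR156 that acts in the juvenile to adult transition, had 0.291 and 0.651 RPM in Recovery replicates 1 and 3 (log2 difference 0.36, limma adjusted p = 0.735). NAC1, a miR164 target that acts in lateral root formation, had 0.291 and 0.309 RPM in Recovery replicates 1 and 2, while ORE1, a NAC factor of leaf senescence and also a miR164 target, had 0.309 and 0.651 RPM in Recovery replicates 2 and 3. GRF1 had 0.618 and 0.434 RPM in Recovery replicates 2 and 3. AFB2, an auxin receptor and miR393 target, had 0.618 and 0.217 RPM there and 0.0545 RPM in HS replicate 1, a fraction of a read that is shared with another locus. APS1, the ATP sulfurylase targeted by miR395, was listed once in each group, at 0.309 RPM in Recovery and 0.326 RPM in HS.

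HAM1, HAM2 and HAM3, GRAS factors of the shoot meristem and perfect matches of miR171a, are named here after their values were seen. HAM1 had 1.85 RPM in Recovery replicate 2 and HAM3 1.08 RPM in Recovery replicate 3, neither was listed in HS at that position, and HAM1 had 2.09 to 3.43 RPM in Control libraries. HAM2 was listed in no Recovery library and at 0.326 RPM in HS replicate 3, with 1.05 to 2.14 RPM in Control libraries. AGO2, an argonaute repressed by miR403, had 0.582, 0 and 0.217 RPM in Recovery libraries, against 1.70, 0 and 0.652 RPM in HS libraries and 1.72 to 1.89 RPM in Control libraries (log2 difference −0.40, limma adjusted p = 0.750). Of the small RNA machinery genes besides AGO2, SERRATE (SE) was at 0.340 and 0.251 RPM in HS replicates 1 and 2, and AGO1 had no listed site in the 6 libraries.

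**Figure D5:**
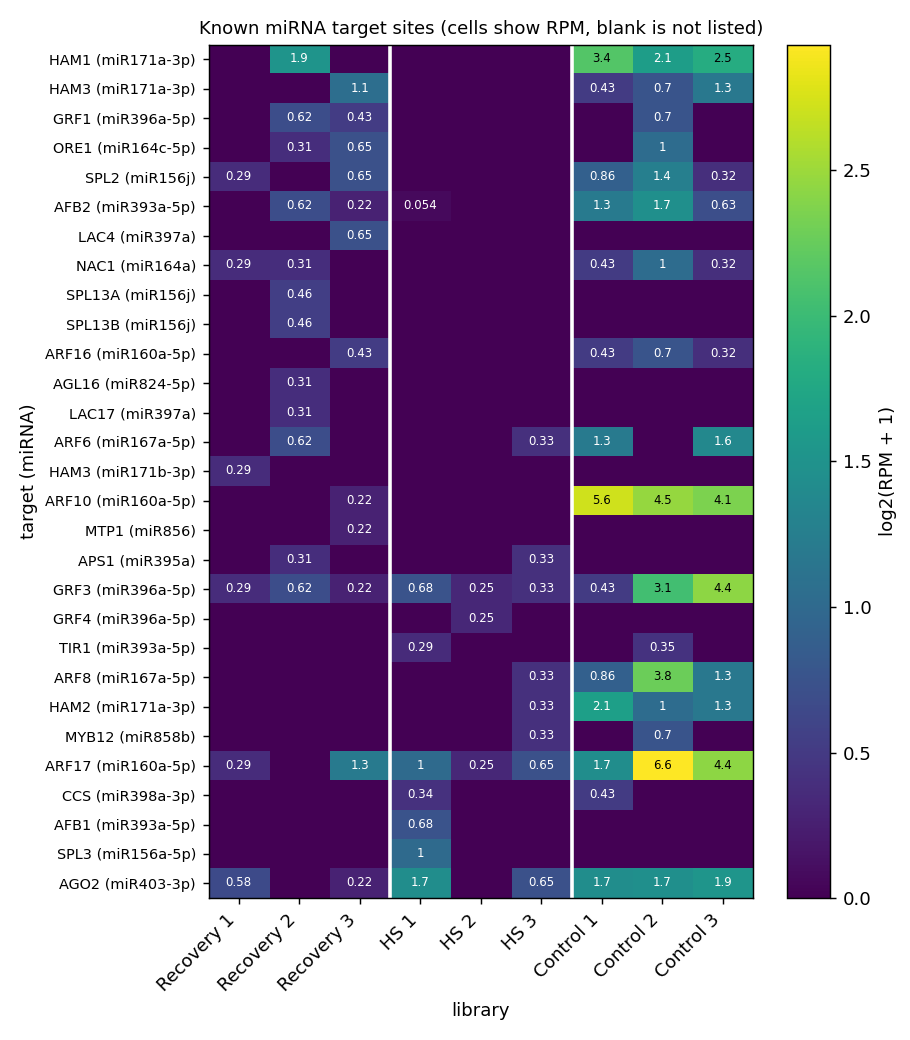
RPM of the 29 known miRNA target sites (rows, ordered by the mean difference between Recovery and HS) in the 9 libraries (columns, Recovery, HS and then Control). Colour is log2(RPM + 1), the numbers are RPM, and blank cells were not listed. Most cells of Recovery and HS are blank, 6 sites are listed in both groups, and the Control columns hold the highest values, such as 6.63 RPM at ARF17.

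The authors' own adjusted p, given per line and library, separates candidate sites from the local background. It was under 0.05 for 19 of 30 lines of known targets in Recovery (63.3%) and 7 of 19 in HS (36.8%), for 2 of 31 lines of the heat shock lists in Recovery (6.45%) and 1 of 59 in HS (1.69%), and for 2.03% of the other lines in Recovery and 1.83% in HS. Lines of 1 library share its depth, so these counts are given without a test. Per library, 3.64%, 3.58% and 5.07% of pairs passed in Recovery, against 2.73%, 3.28% and 1.83% in HS and 5.03 to 6.34% in Control. Every Recovery library was above every HS library, at the smallest p the design allows (two-sided exact permutation p = 0.1, and 0.32 after adjustment).

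In at least 2 libraries of a group, 8 pairs passed the authors' threshold, 4 in both groups and 4 in Recovery alone. Those in both were ARF17, AGO2, AT2G24550 with miR414 and DEG14, a protease homologue, with miR5657. Those in Recovery alone were SPL2, NAC1, HSP90.1 with miR414 and AT4G18905 with miR414. HSP90.1 thus passed more often in Recovery although its RPM was lower there in every library, and it also passed in 1 HS library.

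Most pairs were listed in only 1 of the groups. Counting a pair where at least 2 of 3 replicates listed it, Recovery held 180 pairs and HS 170, of which 112 were in Recovery only, 102 in HS only and 68 in both. The shared pairs were 37.8% of the Recovery pairs and 40.0% of the HS pairs. For miRNAs taken without their targets, 84 were in both, 70.0% of the 120 in Recovery and 65.1% of the 129 in HS, and for target loci 66 were in both, 35.7% of the 185 in Recovery and 39.5% of the 167 in HS. Libraries of 1 group shared few pairs as well. The Jaccard index, the shared fraction of all pairs of 2 libraries, was 0.166 to 0.208 within Recovery, 0.161 to 0.199 within HS and 0.105 to 0.160 between them. Every value within a group was above every value between Recovery and HS, with medians of 0.176 within Recovery and 0.162 within HS, against 0.137 between them. The number of sites per library did not separate the groups, with 251, 338 and 357 in Recovery, against 295, 277 and 382 in HS.

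Photosynthesis transcripts showed no common direction. Of 11 tested sites 6 had a negative and 5 a positive log2 difference (median −0.16, and 0.14 with rescaled libraries), none passed in limma (2 lower and 1 higher at an unadjusted p under 0.05), and the list summed to 11.4, 8.65 and 21.0 RPM in Recovery libraries, against 29.9, 7.02 and 21.5 RPM in HS libraries. LHCB4.1, an antenna protein of photosystem II, had 2.62, 2.16 and 5.21 RPM in Recovery libraries, against 10.2, 1.00 and 8.15 RPM in HS libraries, and the photosystem I subunit PSAG had 0.873, 0.618 and 4.95 RPM in Recovery libraries, against 1.02, 0.753 and 0.652 RPM in HS libraries. At both, the low or high value is that of a single library. Without HS replicate 2 the log2 difference of LHCB4.1 was −1.29 (−0.51 with it, 0.14 with rescaled libraries), and without Recovery replicate 3 that of PSAG was −0.05 (0.54 with it).

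For translation genes 8 of 10 tested sites had a negative log2 difference (7 with rescaled libraries, median −0.37), at 3 every Recovery library was below every HS library (24 of all 322, 7.45%), and none passed in limma (1 lower and 0 higher at an unadjusted p under 0.05). Their sum was 2.91, 2.47 and 5.20 RPM in Recovery libraries, against 10.1, 6.52 and 10.4 RPM in HS libraries and 18.48 to 21.01 RPM in Control libraries. It was thus lower in every Recovery library than in every HS library, and lower in every HS library than in every Control library (Recovery against HS, two-sided exact permutation p = 0.1, the smallest possible). The mean of Recovery was 0.39 times that of HS, while all listed RPM, which overlapped between the groups, was at 0.58 times. Apart from TCTP, the tested sites were matches in copies of EF1A, an elongation factor, and of RPL41. Values of EF1A and RPL41 are uncertain for single copies, because their reads were split among near-identical genes. The counts of sites above are therefore not counts of independent members. The sites with every Recovery library below were TCTP and RPL41 at positions 29 and 71, both miR831-3p matches at RPL41.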

How the data were processed

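Groups and replicate numbers came from the sample titles. Per the labels the reads were aligned to TAIR10, and the authors used the public nanoPARE pipeline, with a version and settings not given in the sources used here. Each library has its own list, with 1 line per miRNA-target pair and slice site. Its reads at the slice site are in RPM as deposited, scaled to the library. The deposited ratio is (slice-site RPM + 1) / (local background RPM + 1), the deposited p-value is adjusted by the authors' pipeline per line, and the Allen score was deposited as a mismatch penalty. Lists were not filtered on the p-value.

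A site was a transcript with a position, and an unlisted site was entered as 0 RPM. Between 89.2% and 94.5% of values in the 6 libraries were whole multiples of 1 read within 0.01 of a read. The others were fractions of a read, so no count model was run, and PCR copies could not be told from molecules. Features (sites, loci and miRNA families) that at least 3 of the 9 libraries listed were fitted as log2(RPM + 1) in limma 3.58.1 under R 4.3.3, with a mean trend in eBayes and Benjamini-Hochberg adjustment at 0.05. Differences are on that scale, which understates changes of low sites, and the fit was tested on simulated data. Library measures had two-sided exact permutation tests of 3 against 3. Families of near-identical miRNAs, such as miR156 with miR157, were merged.

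Named sites were the called ones (at most 15 per level), the 10 with the largest differences each way among non-overlapping sites, known targets with a site in 2 or more of the 6 libraries, the loci of each heat, photosynthesis and translation list with the most RPM (at most 6), AGO1, AGO2 and SE, the 5 families with the most RPM, and pairs under the authors' threshold in at least 2 libraries of a group. The members and the 10 gene lists were chosen with earlier results of these data known. An RNA decay and stress granule list had 1 tested site of PAB4, with a log2 difference of −0.25. Alternatives were pseudocounts of 0.25 and 4, other filters, rescaled libraries, a fit of 6 libraries, a replicate block, Allen scores of at most 4 and each library left out. Python 3.11.15 with pandas 2.3.3, NumPy 2.4.6 and SciPy 1.17.1 was used.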

Additional observations from a re-analysis of the deposited data

How the results depend on the processing

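No called site, locus or family changed direction. Uncalled ones near 0 did. With rescaled libraries the log2 difference was 0.14 at LHCB4.1, 0.0913 at J3, 0.10 at ARF17, 0.10 at HSP18.1, 0.18 at GRF3 and 0.59 for miR414. With each library left out it ranged over −0.0497 to 0.890 at PSAG, −0.0019 to 0.45 at DEG14, −0.50 to 0.10 at ARF17, −0.14 to 0.23 at ARF6, −0.34 to 0.27 at AT2G24550, −0.25 to 0.0824 at HSP18.1, −0.17 to 0.0837 at GRF3 and −0.23 to 0.0519 for miR414. Calls by limma (3 sites, 5 loci and 8 families) were fewest, at 0, 0 and 3, with only the 6 libraries in the fit, and 0 at all levels when only lines under the authors' threshold entered (24 sites, 24 loci and 12 families tested). Without a filter 5 sites were called, and rescaled libraries gave 4 sites, 6 loci and 7 families (4 lower and 3 higher). With the replicate block 3 sites, 6 loci and 7 families were called, but the numbers did not pair the samples (correlations of same-numbered libraries 0.099, 0.029 and −0.051). With each library left out, sites ranged over 0 (without Recovery replicate 3) to 16 (without HS replicate 2, and 8 without Recovery replicate 1), loci over 2 to 9 and families over 4 to 16. The difference (Recovery minus HS) then ranged over −23.5 to 29.5 listed sites, −9.83 to 3.17 miRNAs and −18 to 33 target loci, and non-overlapping sites over 19 to 37 above and 26 to 72 below HS. Rescaling gave Recovery minus HS differences of 4.95 RPM for photosynthesis and 15.2 RPM for all sites outside the mitochondrial genome. With Allen scores of at most 4 they were 17 listed sites, 1.33 miRNAs, 0.613 RPM over all sites, 3.47 RPM for photosynthesis and 6.05 RPM without the mitochondrial genome. Pairs in Recovery only, HS only and both numbered 479, 501 and 222 when 1 replicate sufficed, 33, 33 and 23 when all 3 were needed, and 32, 15 and 15 with Allen scores of at most 4. The cause of these changes was not tested, beyond fewer libraries or lines entering. Most sites held a few reads, so the absence of a call says little about the size of a change.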
